A study of Mus musculus with 32 samples.

Results

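The nuclear genes for the subunits of oxidative phosphorylation were followed in mouse quadriceps, the thigh muscle. They were chosen by name (Nduf subunit names, Sdha to Sdhd, Uqcr, Cox4 to Cox8 and Atp5), by a rule that uses no measured value, and names ending in -ps were left out. Of 53801 gene identifiers in the expression tables, 84 were members, all protein coding, on 19 chromosomes. The members comprised 36 genes of complex I, 4 of complex II, 8 of complex III, 20 of complex IV (with Ndufa4 and Ndufa4l2) and 16 of complex V. The study compared wild-type (WT) mice with mice homozygous for Col6a2tm1(KOMP)Vlcg, a knockout allele of the collagen VI alpha-2 chain gene, written Col6a2-/- here. The allele was made on C57BL/6N and carried through 5 backcross generations onto C57BL/6J, and both genotypes came from heterozygous breeders. Females and males of both genotypes were sampled at 5 weeks and at 25 weeks, with 4 mice and 4 libraries in each of 8 groups and no treatment. RNA came from sections of whole frozen muscle, so each library mixes fibres with the other cells of the tissue, and fewer cells of a type cannot be told apart from less RNA per cell.

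Oxidative phosphorylation takes place in the inner mitochondrial membrane. Complexes I and II take electrons from NADH and succinate, complex III passes them to cytochrome c, and complex IV (cytochrome c oxidase) hands them to oxygen. Complexes I, III and IV pump protons, and complex V (ATP synthase) uses the return of protons to make ATP. All complexes but II combine nuclear-encoded with mitochondrially encoded subunits. Several complex IV subunits exist as a form abundant in heart and skeletal muscle and a form found in most tissues: Cox6a2 and Cox6a1, Cox7a1 and Cox7a2, and Cox8b and Cox8a.

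Levels are in TPM, a share of the library's transcripts scaled to 1000000, which corrects for transcript length. Changes are differences of log2(TPM + 1) from limma. A member is called when its Benjamini-Hochberg adjusted p over the 12817 tested genes was under 0.05. Col6a2 lay between 0 and 0.171 TPM in the 16 Col6a2-/- libraries and between 6.60 and 51.2 TPM in the 16 WT libraries. All genes of the mitochondrial chromosome held 31.9 to 46.9% of a library's TPM. Genes whose names begin with Rn7s, together written Rn7s here, held 20.8 to 30.5%, so all other genes shared 28.4 to 44.2%. In the library weights of limma, Col6a2-/- 5-week female replicate 2 had the lowest weight of the 32, 0.154. It had 12877 genes at 1 TPM or more and the share of 44.2%, both the highest, and the highest macrophage marker sum, 141 TPM. Without it 4 members were called for genotype at 5 weeks, as with it. The count in 5-week females went from 4 to 0, and those for 5-week males, sex and sex by age from 0 to 1, 2 to 4 and 0 to 1. WT 25-week male replicate 4 stood apart in level. Its members summed to 10524 TPM, against 13179 to 14271 TPM in the other 3 of its group, and Rn7s held 30.5% of its TPM.

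The members were abundant and steady. The median mean level of the 81 tested was 134 TPM, against 3.91 TPM over all tested genes, and 78 of the 84 reached 10 TPM in every library. Of the 84, 81 passed the filter of 1 TPM in 4 libraries. The other 3 were complex IV isoforms known from other tissues: Cox6b2 reached at most 0.675 TPM, and Cox7b2 and Cox8c were listed at 0 throughout. The median SD within a group, on the log2 scale, was 0.162 for the tested members and 0.207 for the 924 tested genes of 30 to 800 TPM, members included.

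Complex V subunits had the highest levels, with a median of 262 TPM. The median was 225 TPM over the 17 tested genes of complex IV, 176 in complex III, 141 in complex II and 90.5 in complex I. The most abundant member of all was Atp5b, the catalytic beta subunit of ATP synthase, at 712 TPM. Cox6a2 led complex IV at 459 TPM, Uqcrb complex III at 375 TPM, Ndufb9 complex I at 298 TPM, and the iron-sulphur subunit Sdhb complex II at 216 TPM. Sdhc, a membrane anchor of complex II, was the lowest of its complex at 43.6 TPM. Levels within a complex were far from equal even where the protein subunits occur together in the enzyme.

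Summed by complex, the members took nearly the same proportions in every library. Over the 32 libraries complex I held 27.0% ± 0.650 (SD) of the members' TPM, complex II 3.94% ± 0.195, complex III 11.5% ± 0.456, complex IV 26.5% ± 0.898 and complex V 31.0% ± 0.945. The mean share of complex V was highest in Col6a2-/- mice at 5 weeks, at 31.8% ± 1.11 in females and 31.98% ± 0.485 in males (SD, n = 4). In WT of that age it was 30.6% ± 0.646 and 31.4% ± 0.879, and the genotypes overlapped within each sex. No test was made of these shares. The sum over all members was 13691 ± 969 TPM (SD, n = 32). At 5 weeks it was 13827 ± 772 TPM in WT females and 13738 ± 1244 TPM in WT males (SD, n = 4), with 13611 ± 583 TPM in Col6a2-/- females and 14464 ± 731 TPM in Col6a2-/- males. At 25 weeks the same order of groups gave 13532 ± 686, 12856 ± 1622, 13883 ± 1022 and 13615 ± 827 TPM. All groups overlapped. The sum in Col6a2-/- differed from that in WT by 0.03 log2 at 5 weeks and 0.06 at 25 weeks, and 25 weeks from 5 weeks by -0.07 in WT and -0.03 in Col6a2-/-. The SD within groups was 0.11, so each of these was smaller than the spread between mice. The same held for each complex and all 4 differences, the largest being 0.11 for complex II at 25 weeks, with an SD of 0.16. Without WT 25-week male replicate 4 the difference between ages in WT was -0.02 and that between genotypes at 25 weeks was 0.02.

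**Figure D1:**
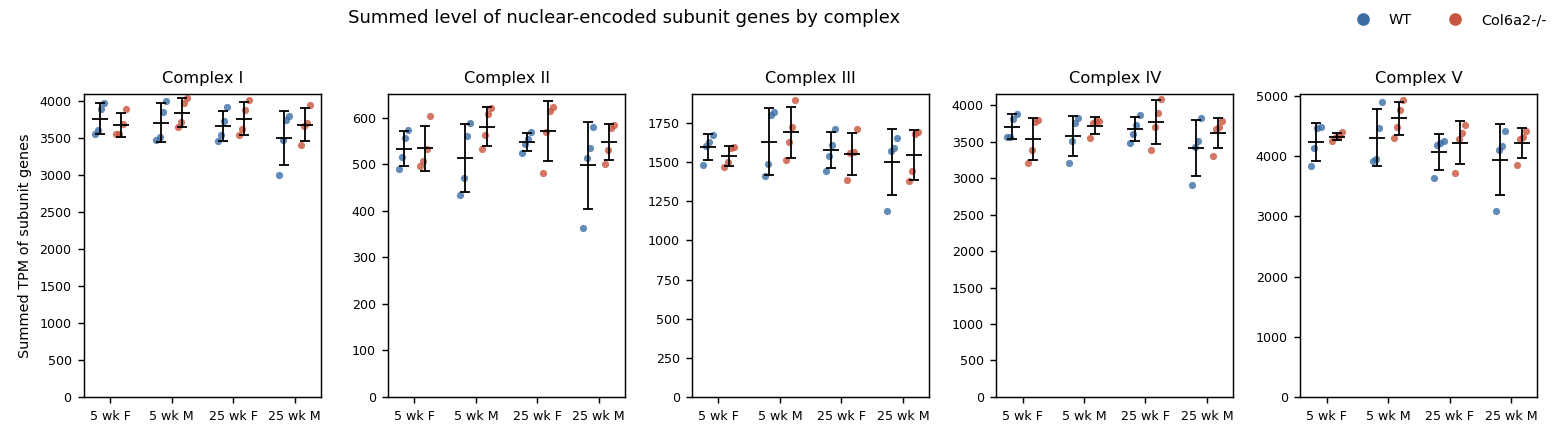
Summed TPM of the members of each complex, one point per library, in the 8 groups of 4 libraries, with mean and SD. The genotypes overlap in every complex, and the sum over all members ran from 10524 TPM, in WT 25-week male replicate 4, to 15103 TPM.

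Some of the mitochondrially encoded partners rose with age. Of the 13 mitochondrial subunit genes, 4 rose in WT and 8 in Col6a2-/-, where 4.47% and 5.41% of all tested genes rose, among them mt-Nd3, a complex I subunit, by 0.53 and 0.58 log2. No mitochondrial subunit gene was called for genotype at either age. At 5 weeks their summed TPM was 4.06 and 3.85 times that of the nuclear members in WT females and males, and 3.87 and 3.80 times in Col6a2-/-. At 25 weeks these ratios were 4.69, 5.35, 4.83 and 5.13. The ages overlapped in females of both genotypes (WT 3.65 to 4.41 and 4.04 to 5.46) and not in males (WT 3.55 to 4.06 and 4.63 to 5.71, Col6a2-/- 3.61 to 4.12 and 4.43 to 5.98), and the ratio was not tested. These 13 genes summed to 44309 to 80360 TPM per library, only part of the share of all mitochondrial genes. That whole share did not rise with age in every group. In WT females it was 36.4 to 42.6% of TPM at 5 weeks and 33.8 to 38.1% at 25 weeks. In the other groups its highest value was larger at 25 weeks, in WT males 46.9% against 40.97%. The ages overlapped in each sex and genotype. TPM is a share, so where the mitochondrial share is larger, the total for all other genes together is smaller. Whether a change in the mitochondrial share lowered the nuclear member sum was not tested. As shares of the TPM outside mitochondrial genes and Rn7s, the nuclear member sum differed between ages by 0.072 in WT and 0.041 in Col6a2-/-, where it was lower with age on the TPM scale.

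Genotype touched few members at 5 weeks. Of 81 tested, 4 were called (4.94%), 2 higher and 2 lower, where 25.4% of all tested genes were called, 23.2% higher and 2.14% lower. Ndufb4 and Cox6a2 fell and Cox7a2l and Cox8a rose, so 3 of the 4 belong to the complex IV list. The median change of the members was 0.03 log2, against 0.15 over all tested genes, and 70 of 81 members lay below the all-gene median. This comparison depends on which genes are tested and how they are scaled. Without a filter on TPM the medians were 0.030 and 0.020, with 37 members below and 45 above. That setting lets in genes with hardly any TPM, whose changes the pseudocount of 1 keeps small, and these draw in the all-gene median. With at least 5 TPM in 4 libraries the medians were 0.030 and 0.130, with 68 of 80 members below. With quantile normalization they were -0.069 and -0.025, with 50 below. None of the members changed by more than 0.5 log2, while 7.81% of all tested genes did.

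Ndufb4, an accessory membrane subunit of complex I (chromosome 16, 37647170 to 37654453, minus strand, GRCm38), had lowest, median and highest levels of 72.5, 76.6 and 93.8 TPM in the 8 WT mice at 5 weeks. In the 8 Col6a2-/- mice they were 62.7, 66.8 and 70.4 TPM. The groups did not overlap, which 0.125% of all tested genes showed in this direction. The change was -0.23 ± 0.06 (SE), with an adjusted p of 0.00483 in limma, and all 8 Col6a2-/- libraries lay below the WT mean. At 25 weeks the WT values were 74.7, 80.3 and 90.3 TPM and those of Col6a2-/- 71.1, 74.2 and 79.2 TPM. These overlapped, and the difference of -0.11 was not called (adjusted p = 0.305).

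Cox6a2, the muscle form of complex IV subunit 6a (chromosome 7, 128205435 to 128206387, minus strand), ran through 377, 450 and 533 TPM (lowest, median, highest) in WT at 5 weeks. In Col6a2-/- it ran through 336, 379 and 507 TPM, with overlap. It fell by 0.22 on the log2 scale (SE 0.07, adjusted p = 0.0143 in limma), and 7 of 8 Col6a2-/- mice lay below the WT mean of their sex. Other counts of mice are of this kind, each mouse set against the mean of the matching group. No mouse was measured at both ages. Cox7a2l, counted here with complex IV (chromosome 17, 83501919 to 83514333, minus strand), ran through 46.2, 54.2 and 62.1 TPM in WT and 57.1, 64.1 and 69.0 TPM in Col6a2-/-. It rose by 0.23 (SE 0.06, adjusted p = 0.00925) in 8 of 8 mice, although the ranges overlapped. Cox8a, the widely expressed form of subunit 8 (chromosome 19, 7215158 to 7217616, minus strand), ran through 32.8, 39.9 and 52.1 TPM in WT and 33.4, 50.8 and 72.4 TPM in Col6a2-/-. Its rise of 0.34 (SE 0.11, adjusted p = 0.0198) lay near the threshold and between 0.26 and 0.44 over the fits with 1 library left out. It was 0.26 (adjusted p = 0.0524) without Col6a2-/- 5-week female replicate 3 and 0.31 (adjusted p = 0.0519) without Col6a2-/- 5-week male replicate 1.

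Cox6a1, the widely expressed partner of Cox6a2, was just outside the threshold at 0.40 (SE 0.15, adjusted p = 0.0505). It was called with library weights, with a correction for length and GC content, and with the replicate number as a block. Its level ran through 18.6, 24.8 and 40.4 TPM in WT and 22.6, 32.7 and 63.3 TPM in Col6a2-/-. In complex I, Ndufs4 differed by 0.23 (adjusted p = 0.0555), and it was called higher with library weights and with the correction for length and GC content. The widest differences in the other complexes belonged to Sdhd (0.11), Uqcrc1 (0.21, adjusted p = 0.140) and Atp5j2 in complexes II, III and V, none of them called. Atp5h, in complex V, was called higher with library weights and with the correction for length and GC content.

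**Figure D2:**
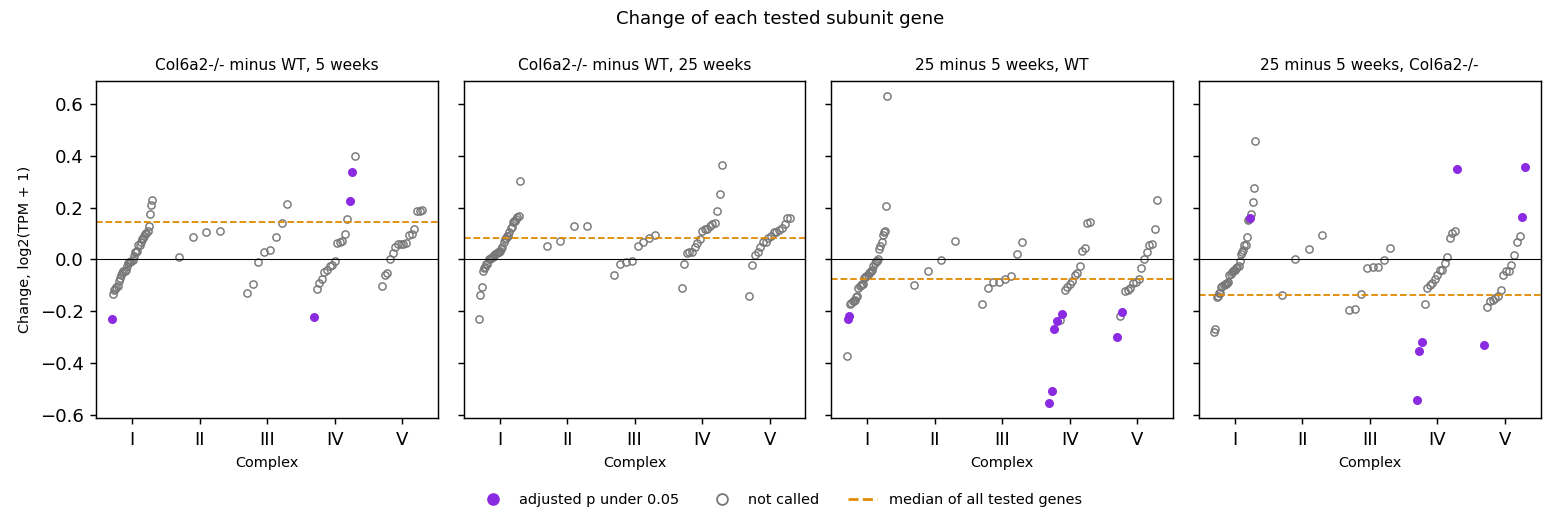
Change of each tested member (log2 scale) between genotypes at each age and between ages in each genotype, by complex, with called members marked and the median of all tested genes as a line. At 5 weeks most members lie below the all-gene median of 0.15, and 4 are called.

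The direction of the 4 called members held under each of the 13 other settings, but which of them passed depended on the scale. Scaling by median-of-ratios size factors shifted the median of all genes from 0.15 to 0.00 and that of the members from 0.03 to -0.16. With it, 12 members were called at 5 weeks, all of them lower. Leaving the 100 most abundant genes out of the total gave 11 and quantile normalization gave 10, again all lower. Of all tested genes 12.7% were called higher and 11.5% lower with size factors. These shares were 15.1% and 7.99% without the 100 genes and 11.0% and 13.0% with quantile normalization. Ndufb4 and Cox6a2 were called lower under these 3 settings, while Cox7a2l and Cox8a did not pass. With size factors Cox7a2l differed by only 0.037 (adjusted p = 0.708) and Cox8a by 0.15 (adjusted p = 0.291). When mitochondrial genes and Rn7s were left out of the total, only Cox7a2l and Cox8a were called, and Ndufb4 (adjusted p = 0.0528) and Cox6a2 (adjusted p = 0.0832) were not. In that setting 21.4% of all tested genes rose and 1.85% fell. With only the 16 libraries of 5-week mice in the fit, Ndufb4 alone was called, where 13.7% of all tested genes rose and 1.31% fell.

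**Figure D3:**
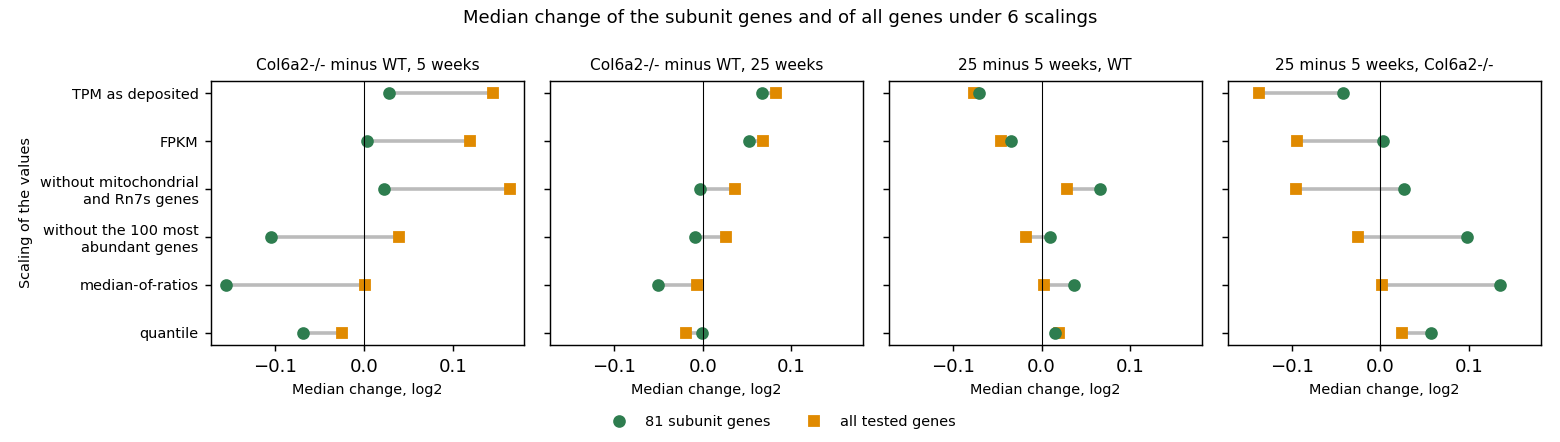
Median change of the 81 tested members and of all tested genes (log2 scale) under 6 ways of scaling the libraries, for the genotype and age comparisons. At 5 weeks the members lie below all genes, by 0.03 against 0.15 as reported and by -0.16 against 0.00 with size factors.

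At 25 weeks limma called none of the 81 members for genotype, where 4.7% of all tested genes were called. An unadjusted p under 0.05 was reached by 3 members: Atp5k, a small membrane subunit of ATP synthase (0.16, adjusted p = 0.167), Cox6a1 (0.36, adjusted p = 0.174) and Cox8a (0.25, adjusted p = 0.182). With library weights, Cox6a1 and Cox8a were called. The members' median of 0.07 was close to the 0.08 of all tested genes. Without a filter on TPM the medians were 0.068 and 0.011, with 61 members above. With at least 5 TPM in 4 libraries they were 0.068 and 0.069, with 39 of 80 members above. With size factors they were -0.051 and -0.007, with 57 members below. The change of the genotype difference between the ages was called for no member in limma, against 0.492% of all tested genes, and only Cox6a2 had an unadjusted p under 0.05 (0.21, adjusted p = 0.633). A lack of calls does not show that the genotypes acted alike at both ages.

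Split by sex, 5-week females had 4 called members in the fit as reported, 2 higher and 2 lower (12.9% of all tested genes were called, 12.3% higher and 0.57% lower). These were Ndufb4 and Cox6a2, lower, and Cox6a1 and Cox8a, higher. The count in these females rested on the mice and the scale. It was 0 without any 1 of WT female replicates 1 and 2 and Col6a2-/- female replicates 1 and 2, 1 without WT female replicate 4 or Col6a2-/- female replicate 3, and 2 without WT female replicate 3. It was also 0 without mitochondrial genes and Rn7s and with only the compared groups. With size factors it was 0 higher and 5 lower, without the 100 most abundant genes 0 and 3, with quantile normalization 0 and 1, and with FPKM 1 and 2. In the same order 7.90%, 10.2%, 6.51% and 13.1% of all tested genes rose, and 5.96%, 3.47%, 5.99% and 0.935% fell. In 5-week males limma called none (5.03% of all genes), with 8 at an unadjusted p under 0.05, and 1 without any 1 of WT female replicate 2, WT male replicates 1 and 2, Col6a2-/- female replicates 2 and 4, Col6a2-/- male replicate 4 and Col6a2-/- 25-week male replicate 2. At 25 weeks it called none in females (0.0078%; 3 unadjusted) and none in males (3.03%; 5 unadjusted). The difference between the sexes in the genotype effect was called for no member (0.0156%; 2 unadjusted), so a female-limited effect was not shown.

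Within complex IV the muscle forms and the widely expressed forms were then set against each other in the same library, where a change of scale cancels. In all 32 libraries the muscle forms Cox6a2, Cox7a1 and Cox8b exceeded their partners. For Cox6a2 over Cox6a1 and Cox8b over Cox8a the excess was smaller in Col6a2-/- and grew with age in both genotypes.

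The 250 bases upstream of the start are shown for Cox6a1, Cox8a, Cox8b, Cox7a1 and Cox7a2, so that the pairs whose ratios differed between genotypes can be set beside the pair that showed no call for genotype. Cox6a2 had no entry. They are from RefSeq, GRCm38.p6, read 5′ to 3′ on the gene's strand, and capitals mark the motifs searched. Cox6a1 (chr5:115348959-115349208, minus strand) holds 2 NRF1 motifs, 1 ETS motif, 2 GC boxes and a CCAAT box. Cox8a (chr19:7217617-7217866, minus strand) holds a CCAAT box, and Cox8b (chr7:140900447-140900696, minus strand) an E box of myogenic factors. Cox7a1 (chr7:30183921-30184170, plus strand) holds 2 CCAAT boxes and Cox7a2 (chr9:79759854-79760103, minus strand) a GC box.
Cox6a1: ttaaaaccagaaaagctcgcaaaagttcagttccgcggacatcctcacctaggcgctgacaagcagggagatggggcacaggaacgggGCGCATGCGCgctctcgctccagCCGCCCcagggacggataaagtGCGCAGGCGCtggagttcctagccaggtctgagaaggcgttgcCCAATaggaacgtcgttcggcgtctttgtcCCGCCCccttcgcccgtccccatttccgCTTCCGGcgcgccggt
Cox8a: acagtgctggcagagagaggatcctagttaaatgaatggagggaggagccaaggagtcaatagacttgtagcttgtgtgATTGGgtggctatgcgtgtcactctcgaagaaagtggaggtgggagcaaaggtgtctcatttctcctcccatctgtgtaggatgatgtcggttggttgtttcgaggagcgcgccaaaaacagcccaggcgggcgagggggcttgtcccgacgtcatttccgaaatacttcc
Cox8b: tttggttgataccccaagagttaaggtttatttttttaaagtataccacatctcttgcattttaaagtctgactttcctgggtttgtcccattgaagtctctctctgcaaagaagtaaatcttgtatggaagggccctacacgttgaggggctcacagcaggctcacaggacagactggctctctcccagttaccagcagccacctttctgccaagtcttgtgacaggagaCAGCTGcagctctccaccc
Cox7a1: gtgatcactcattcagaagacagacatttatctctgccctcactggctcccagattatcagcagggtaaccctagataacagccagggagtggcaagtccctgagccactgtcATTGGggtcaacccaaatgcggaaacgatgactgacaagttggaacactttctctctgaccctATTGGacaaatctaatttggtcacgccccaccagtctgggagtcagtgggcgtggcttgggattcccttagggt
Cox7a2: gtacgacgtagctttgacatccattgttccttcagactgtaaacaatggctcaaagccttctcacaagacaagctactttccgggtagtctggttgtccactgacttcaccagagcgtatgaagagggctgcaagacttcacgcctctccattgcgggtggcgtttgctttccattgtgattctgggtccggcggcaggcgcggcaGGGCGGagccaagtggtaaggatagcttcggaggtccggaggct

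The same motifs were counted on both strands in 72 windows of 300 bases at the starts of 67 members, and in all 32851 such windows. The NRF1 motif (GCGCA and GCGC with 1 base of any kind between them), read by a regulator of respiratory genes, was in 25% of the members' windows and 4.60% of all. The shares were 22.2% and 8.86% for the ETS motif CCGGAAG, 13.9% and 2.38% for the YY1 motif AANATGGCG, and 11.1% and 4.72% for the estrogen-related receptor motif AAGGTCA. The GC box GGGCGG (38.9% and 35.7%) and the CCAAT box (41.7% and 37.4%) differed little. The TATA motif TATAAA was in 11.1% and 13.6%, and the E box CAGCTG in 8.33% and 16.3%. The members' windows were also richer in G and C, with a median of 57.3% against 52.7%, and the shares were not corrected for this. Such matches describe letters in a window, not bound sites.

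The Cox6a2 to Cox6a1 ratio of TPM ran through 10.3, 16.9 and 28.7 (lowest, median, highest) in the 8 WT mice at 5 weeks and through 6.51, 10.8 and 22.4 in the 8 Col6a2-/- mice. At 25 weeks it ran through 23.4, 27.6 and 31.9 in WT and 16.02, 18.9 and 31.98 in Col6a2-/-. The genotypes overlapped at both ages. The high value of 22.4 at 5 weeks was Col6a2-/- female replicate 4, and the other 7 lay at or below 13.0. On the log2 scale the ratio was lower in Col6a2-/- by -0.64 (SE 0.22) at 5 weeks, with p = 0.02 and an adjusted p of 0.04 in a two-sided exact permutation within sex. At 25 weeks the difference was -0.40 (SE 0.13, exact permutation adjusted p = 0.0363). Both were seen in 7 of 8 mice. The p-values of the 20 ratio tests were adjusted together, and the smallest p the design allows is 0.000408.

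The 5-week difference in this ratio is close to the threshold. It ranged from -0.81 to -0.51 when single libraries were left out. The adjusted p was 0.0505 to 0.0673 without any 1 of WT female replicates 1 to 4, WT male replicates 3 and 4, Col6a2-/- female replicates 1 to 3 and Col6a2-/- male replicate 1. At 25 weeks it was 0.0549 to 0.0601 without WT female replicate 4 or Col6a2-/- female replicates 1 or 2. With the replicate number as a block the 25-week adjusted p was 0.0625. Without the high Col6a2-/- 5-week female replicate 4 the 5-week difference was -0.81 (exact permutation adjusted p = 0.00918).

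The Cox8b to Cox8a ratio moved the same way. It ran through 7.49, 9.57 and 11.8 (lowest, median, highest) in WT at 5 weeks and 5.65, 6.83 and 11.3 in Col6a2-/-. At 25 weeks it ran through 10.9, 12.5 and 15.6 in WT and 8.26, 9.41 and 11.7 in Col6a2-/-. The highest Col6a2-/- value at 5 weeks was again female replicate 4. The difference was -0.42 (SE 0.13, exact permutation adjusted p = 0.0363) at 5 weeks and -0.37 (SE 0.08, adjusted p = 0.0122) at 25 weeks, each in 7 of 8 mice. At 25 weeks it held without any single library. At 5 weeks the adjusted p was 0.0505 to 0.0616 without any 1 of WT female replicates 1 to 4, WT male replicates 3 and 4 and Col6a2-/- male replicate 1, with differences between -0.54 and -0.37 over all fits. With the replicate number as a block the 5-week adjusted p was 0.0521. The difference between the ages in the genotype effect, a test chosen after seeing the data, gave an adjusted p of 0.824 for both ratios.

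Cox7a1 to Cox7a2 gave a contrasting result. Its mean ratio was 1.93 in WT and 1.99 in Col6a2-/- at 5 weeks, and 2.16 and 2.25 at 25 weeks. The genotype differences were 0.04 (SE 0.07) and 0.07 (SE 0.08), with exact permutation adjusted p of 0.591 and 0.489. Of the 3 muscle pairs it had the smallest ratio and the smallest differences between genotypes. Whether it differed from the other pairs was not tested.

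**Figure D4:**
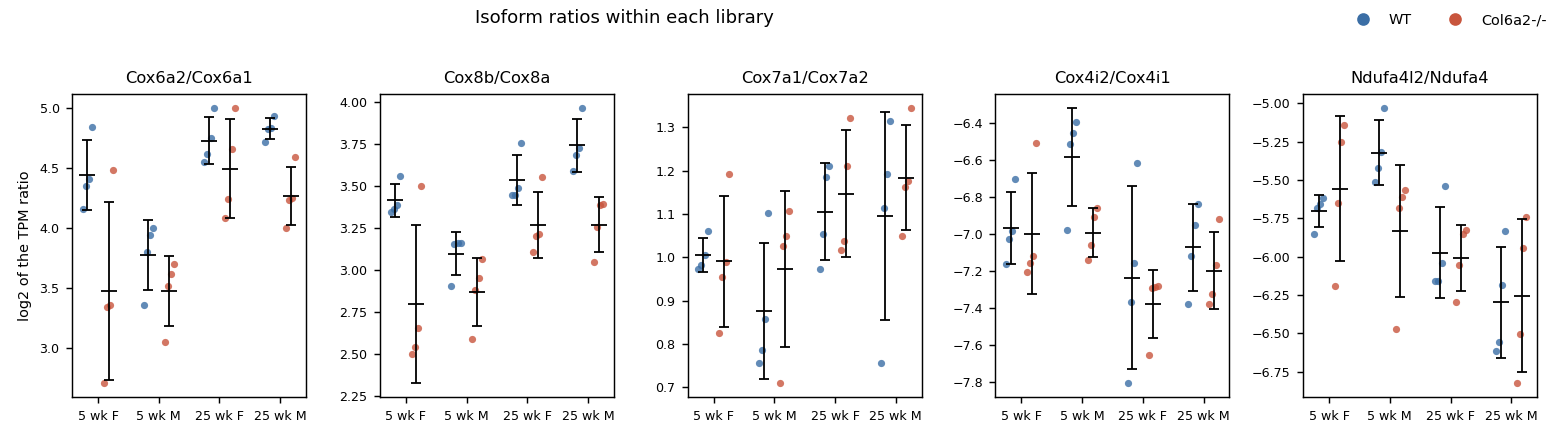
Ratio of the TPM of both genes of each isoform pair, on the log2 scale, one point per library in the 8 groups, with mean and SD. Over both sexes at 5 weeks the mean log2 ratio of Cox6a2 over Cox6a1 is 4.11 in WT and 3.47 in Col6a2-/-, and that of Cox8b over Cox8a 3.26 and 2.83.

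The levels behind the ratios differed in size and in call. Cox8b, the muscle form of subunit 8, ran through 358, 385 and 416 TPM in WT and 293, 372 and 409 TPM in Col6a2-/- at 5 weeks, and through 386, 422 and 447 TPM and 358, 394 and 419 TPM at 25 weeks. It was not called for genotype at either age, and the ranges overlapped. Cox8a and Cox6a1 are less abundant than the muscle forms in all groups and had larger log2 differences between genotypes, of which only that of Cox8a at 5 weeks was called. Cox6a2 was called at 5 weeks and not at 25 weeks.

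Markers of other cells were compared between genotypes in the same libraries. Of all tested genes 23.2% rose and 2.14% fell in Col6a2-/- at 5 weeks, and 4.47% rose and 0.234% fell at 25 weeks. All 6 macrophage markers rose in Col6a2-/- at both ages. Their summed level ran through 32.7, 37.0 and 55.9 TPM in WT and 37.4, 107 and 141 TPM in Col6a2-/- at 5 weeks, and through 18.4, 27.8 and 44.0 TPM and 39.8, 50.7 and 73.9 TPM at 25 weeks. Of 6 fibroblast markers 4 rose at both ages, with a summed median of 797 TPM in WT and 1260 TPM in Col6a2-/- at 5 weeks (ranges 582 to 1429 and 520 to 1940), and 389 and 482 TPM at 25 weeks (243 to 470 and 441 to 700). No macrophage or fibroblast marker was at 0 in any library. Of 8 muscle fibre markers 3 fell at 5 weeks (Tnnt3, Ckm and Myh4), and none was called at 25 weeks. The fibre sum ran through 23822, 27664 and 29736 TPM in WT and 18625, 22677 and 28484 TPM in Col6a2-/- at 5 weeks. Of 6 genes of regenerating muscle 5 rose at 5 weeks and 1 at 25 weeks, with Mymk or Mymx at 0 in some libraries. Of 5 endothelial markers 2 rose at 5 weeks (summed median 59.6 TPM in WT and 76.2 TPM in Col6a2-/-) and none was called at 25 weeks. None of 6 adipocyte markers was called at either age, although their summed median at 25 weeks was 152 TPM in WT and 376 TPM in Col6a2-/- (21.1 to 406 and 119 to 568 TPM). Col6a2-/- 5-week female replicate 4, whose Cox6a2 to Cox6a1 and Cox8b to Cox8a ratios were highest in its group, had the lowest macrophage sum (37.4 TPM, others 81.1 to 141) and the lowest fibroblast sum (520 TPM). The part of these cells in the isoform ratios was not tested.

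With age in WT mice 9 members fell and none rose. That is 11.1% of the members, where 19.8% of all tested genes were called and 15.3% were lower. The members' median change was -0.07 and that of all tested genes -0.08. Without a filter on TPM these medians were -0.074 and -0.006, with 58 members below. With at least 5 TPM in 4 libraries they were -0.069 and -0.066, with 41 of 80 members below. Without mitochondrial genes and Rn7s they were 0.066 and 0.028, with 55 members above. Of the 9, 5 were complex IV genes (Ndufa4l2, Cox6a1, Cox7a2, Cox5a and Cox4i2), 2 complex I (Ndufa1 and Ndufc2) and 2 complex V (Atp5k and Atp5g3).

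Ndufa4l2, a paralogue of Ndufa4 known as a target of hypoxia signalling (chromosome 10, 127514967 to 127517154, plus strand), ran through 3.68, 4.57 and 6.00 TPM in WT at 5 weeks. At 25 weeks it ran through 2.35, 2.84 and 4.17 TPM, with 1 old mouse in the young range. It fell by 0.55 on the log2 scale (SE 0.09, adjusted p = 4.97e-05 in limma) in WT. In Col6a2-/- the levels were 3.39, 4.55 and 5.16 TPM and then 2.32, 3.29 and 4.09 TPM, and it fell by 0.35 (SE 0.09, adjusted p = 0.00311). Ndufa4 itself had a mean of 218 TPM in WT at 5 weeks and 205 TPM at 25 weeks. The Ndufa4l2 gene overlaps Shmt2, and reads of overlapping genes may not have been told apart.

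Cox6a1 in WT ran through 15.3, 17.7 and 23.6 TPM at 25 weeks. It fell by 0.51 (SE 0.15, adjusted p = 0.0170) in WT and by 0.54 (adjusted p = 0.00648) in Col6a2-/-, where it ran through 16.3, 23.8 and 32.3 TPM at 25 weeks. Atp5g3, one of the genes for the c-ring subunit of ATP synthase, ran through 235, 260 and 324 TPM at 5 weeks and 147, 228 and 249 TPM at 25 weeks in WT. It fell by 0.30 (adjusted p = 0.0288) there, and by 0.33 (adjusted p = 0.0104) in Col6a2-/-, from 251, 299 and 374 TPM to 193, 251 and 258 TPM. Ranges overlapped in each case. These 2 genes and Ndufa4l2 were called with age in both genotypes, 33.3% of the WT calls and 37.5% of those in Col6a2-/-. The same shares over all tested genes are not given here, so this overlap is not read as large or small.

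The remaining WT age calls were smaller. Ndufa1, a membrane subunit of complex I, ran through 130, 152 and 171 TPM at 5 weeks and 107, 127 and 146 TPM at 25 weeks, and fell by 0.23 (adjusted p = 0.00639). Cox7a2, the widely expressed form of subunit 7a, ran through 161, 186 and 206 TPM and then 142, 156 and 177 TPM, and fell by 0.21 (adjusted p = 0.0188). Without WT 5-week female replicate 4 its change was -0.19 (adjusted p = 0.0519). Atp5k fell by 0.20 (adjusted p = 0.0274) from 281, 321 and 389 TPM to 226, 293 and 306 TPM, and Cox4i2, the lung-type form of subunit 4, by 0.24 (adjusted p = 0.0467) from a mean of 1.80 TPM to 1.38 TPM. Over the fits with 1 library left out the change of Atp5k lay between -0.23 and -0.16, and its adjusted p was 0.0543 to 0.0772 without WT 5-week female replicate 4, 5-week male replicates 1 or 2 or 25-week male replicate 4. The Cox4i2 call was lost in 18 of the 32 fits, 11 that left out a WT library and 7 that left out a Col6a2-/- library, with a change between -0.28 and -0.18 over all 32 and an adjusted p of 0.0511 to 0.119 where it was lost.

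Further WT calls lay near the threshold and passed it or not by which mice were in the fit, with changes of like size. Cox5a, an essential complex IV subunit, fell by 0.27 (adjusted p = 0.0272) from 276, 318 and 380 TPM to 217, 282 and 314 TPM. Over all fits with 1 library left out the change lay between -0.30 and -0.22, and the adjusted p was 0.0512 to 0.0653 without WT 5-week female replicate 2, 5-week male replicates 1 or 2, 25-week female replicates 3 or 4 or 25-week male replicate 4. Ndufc2 fell by 0.22 (adjusted p = 0.0267; -0.25 to -0.19 over these fits), with an adjusted p of 0.0541 to 0.0642 without 5-week female replicates 1 or 2, 5-week male replicates 1 or 3, 25-week female replicate 4 or 25-week male replicate 4. The fall of Atp5g3 in WT lay between -0.34 and -0.21 and had an adjusted p of 0.0540 to 0.0716 without 5-week female replicates 2 or 4, 5-week male replicates 1 or 2, 25-week female replicate 4 or 25-week male replicate 4. The number of members called with age in WT was 4 to 11 over the same fits.

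In Col6a2-/- mice 4 members rose and 4 fell with age, 9.88% of the members, where 34.2% of all tested genes were called, 5.41% higher and 28.8% lower. Cox6a2, Atp5s, Atp5l and Ndufb4 rose, and Ndufa4l2, Cox6a1, Atp5g3 and Cox8a fell. The members' median was -0.04 and that of all tested genes -0.14, with 64 of 81 members above it. Without a filter on TPM the order turned round, with medians of -0.043 and -0.016 and 30 members above. There genes with hardly any TPM draw in the all-gene median. With at least 5 TPM in 4 libraries the medians were -0.042 and -0.126, with 61 of 80 members above. With quantile normalization the medians were 0.057 and 0.025, with 51 above.

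Cox6a2 ran through 423, 481 and 567 TPM in Col6a2-/- at 25 weeks, above the 336, 379 and 507 TPM of 5 weeks with some overlap. It rose by 0.35 (SE 0.07, adjusted p = 0.000177 in limma), and 8 of 8 old mice lay above the 5-week mean of their sex. Atp5s, also called Dmac2l, encodes coupling factor B, and ran through 2.85, 4.14 and 5.04 TPM at 5 weeks and 4.64, 5.84 and 6.50 TPM at 25 weeks. It rose by 0.36 (SE 0.11, adjusted p = 0.00971). Both kept their call under each of the 13 other settings. Ndufb4, which was lower in Col6a2-/- at 5 weeks, rose by 0.16 (adjusted p = 0.0329) to levels that did not overlap those of the young mice, as 0.804% of all tested genes did. That call had an adjusted p of 0.0503 to 0.0713 without Col6a2-/- 5-week female replicates 1 or 2, 5-week male replicates 3 or 4, 25-week female replicate 2 or 25-week male replicates 1 or 3.

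Atp5l, a membrane subunit of ATP synthase, rose by 0.16 (adjusted p = 0.0265) from 185, 214 and 226 TPM to 217, 238 and 246 TPM. Without Col6a2-/- 5-week female replicate 2, 5-week male replicate 1 or 25-week male replicate 3 its adjusted p was 0.0542 to 0.0611. Cox8a fell by 0.32 (SE 0.11, adjusted p = 0.0200) to 33.4, 41.5 and 46.5 TPM. Its change was -0.24 (adjusted p = 0.0571) without Col6a2-/- 5-week female replicate 3.

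**Figure D5:**
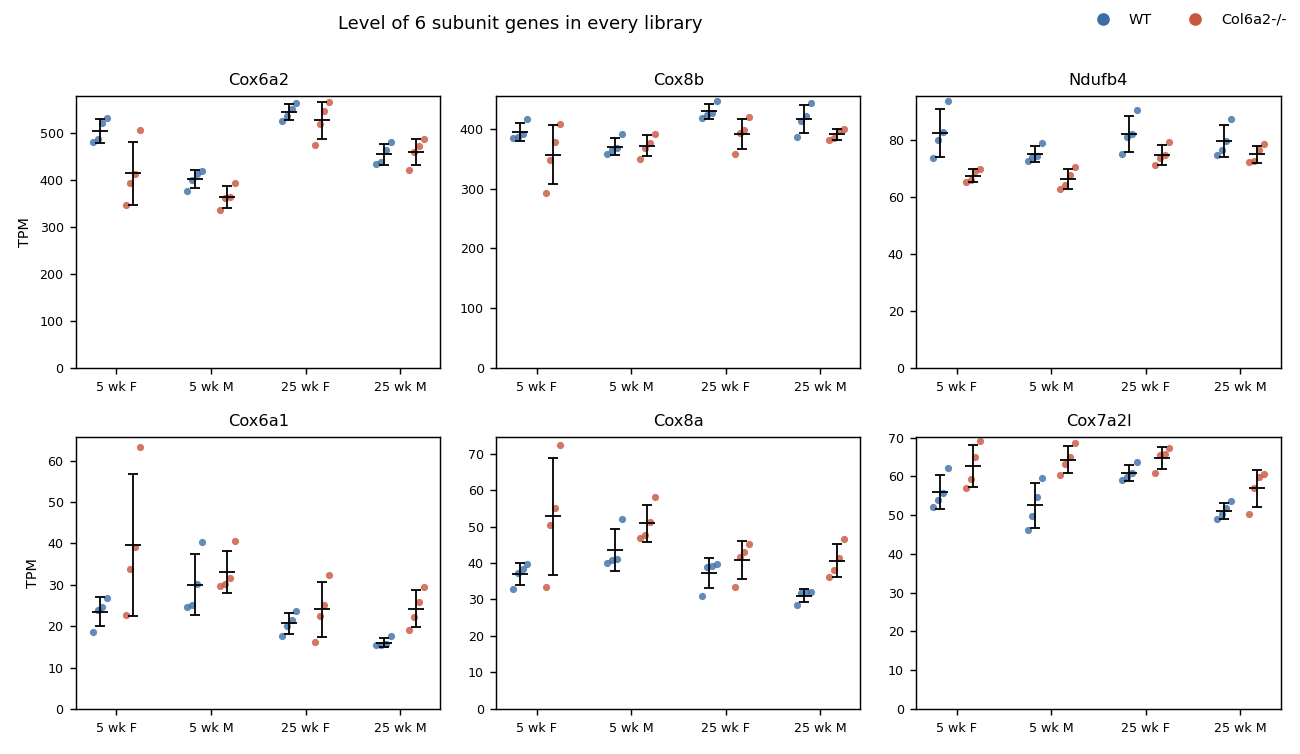
TPM of 6 members that carry the genotype calls and isoform ratios, one point per library in the 8 groups, with mean and SD. Ndufb4 at 5 weeks lies between 62.7 and 70.4 TPM in Col6a2-/- and between 72.5 and 93.8 TPM in WT, without overlap, while the other 5 genes overlap between genotypes with both sexes together.

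The balance of higher and lower age calls moved with the scale. In WT the 0 higher and 9 lower became 1 and 2 with size factors or without the 100 most abundant genes, 4 and 3 with quantile normalization and 5 and 1 without mitochondrial genes and Rn7s. Of all tested genes 13.3% rose and 15.2% fell with size factors, and 11.0% and 16.1% without the 100 genes. These shares were 13.9% and 13.1% with quantile normalization and 9.05% and 9.16% without mitochondrial genes and Rn7s. Library weights gave 5 and 11 members (8.40% and 24.1% of all tested genes). The length and GC correction gave 2 and 8 (4.95% and 16.2%). In Col6a2-/- the 4 higher and 4 lower became 12 and 1 with size factors, 13 and 2 without the most abundant genes, 9 and 1 with quantile normalization, 2 and 2 without mitochondrial genes and Rn7s, and 6 and 3 with FPKM. In the same order 16.4%, 13.7%, 18.9%, 6.34% and 7.25% of all tested genes rose. The shares that fell were 18.1%, 20.2%, 16.6%, 19.6% and 24.2%. The fall of Ndufa4l2 in WT was called under each of these settings. That of Cox6a1 in WT was lost only without mitochondrial genes and Rn7s (adjusted p = 0.104), and that of Ndufc2 in 3 of these 4 rescalings. Ndufa1, Cox7a2, Cox5a, Atp5k, Atp5g3 and Cox4i2 lost their WT call in all 4. Without mitochondrial genes and Rn7s the change was -0.093 (adjusted p = 0.539) for Ndufa1 and -0.074 (adjusted p = 0.649) for Cox7a2. In Col6a2-/-, over all 13 other settings, Cox8a lost its call in 6, Atp5g3 in 4, Atp5l in 3, Ndufb4 in 2 and Cox6a1 and Ndufa4l2 in 1 each.

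The ratios of muscle to widely expressed forms in the pairs of subunits 6a and 8, which do not depend on the scale, rose with age. Cox6a2 over Cox6a1 rose by 0.67 (SE 0.12) in WT and 0.91 (SE 0.23) in Col6a2-/-, with an exact permutation adjusted p of 0.0122 for both, in 8 of 8 mice each. Cox8b over Cox8a rose by 0.38 (SE 0.07, exact permutation adjusted p = 0.0147) and 0.44 (SE 0.14, adjusted p = 0.0292). In Col6a2-/- that adjusted p was 0.0544 without 5-week female replicate 3 and 0.05 without 25-week female replicate 1. In WT it was 0.0521 with the replicate number as a block. Cox7a1 over Cox7a2 differed by 0.16 (adjusted p = 0.0822, and 0.0496 and 0.0286 without 25-week female replicate 2 or male replicate 4) in WT and rose by 0.18 (adjusted p = 0.046) in Col6a2-/-. The latter was lost without any 1 of 10 libraries (Col6a2-/- 5-week females 1 to 3 and males 1 and 4, 25-week females 1 and 3 and males 1, 3 and 4), with an adjusted p of 0.0534 to 0.0885. Its adjusted p with the replicate block was 0.0994. Of all tested genes 15.3% fell with age in WT and 28.8% in Col6a2-/-, and the counts of markers of other cells stand beside these shares. Of 6 macrophage markers 1 fell in WT and 6 in Col6a2-/-, and 3 of 6 fibroblast markers fell in each. Of the other lists, 2 of 4 tested Schwann cell markers fell in WT and 4 in Col6a2-/-, with a summed median going from 62.9 to 24.0 TPM and from 67.8 to 30.4 TPM. Of 6 genes of regenerating muscle 3 and 5 fell (126.6 to 115 TPM and 157 to 99.9 TPM), and of 8 fibre markers 1 and 1 fell (27664 to 24061 TPM and 22677 to 21234 TPM). Endothelium and tenocytes had 2 of 5 markers lower in each genotype. The adipocyte summed median went from 158 to 152 TPM in WT and from 151 to 376 TPM in Col6a2-/-. That of erythrocytes went from 486 to 553 TPM and from 457 to 605 TPM, and the ranges of both lists overlapped. The part of these cells was not tested.

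Ndufa4l2 and Cox4i2, the low isoforms of their pairs, were set against their abundant partners in the same way. Ndufa4l2 over Ndufa4 had a mean of 0.0222 in WT at 5 weeks and 0.0146 at 25 weeks, a change of -0.62 (exact permutation adjusted p = 0.0122). In Col6a2-/- the means were 0.0201 and 0.0147, a change of -0.44 (adjusted p = 0.0772), with adjusted p of 0.0279 without 5-week female replicate 4 and 0.0408 without 5-week male replicate 1. Cox4i2 over Cox4i1 had means of 0.00930 and 0.00722 in WT (-0.38, adjusted p = 0.0551). In WT the adjusted p was 0.0381 without 5-week male replicate 2, 0.0150 without 25-week female replicate 2 and 0.0490 without 25-week male replicate 3. The means were 0.00794 and 0.00646 in Col6a2-/- (-0.29, adjusted p = 0.0292, and 0.0553 without 25-week female replicate 1). With a pseudocount of 1 added to both TPM values these differences were smaller, -0.21 (adjusted p = 0.153) in WT and -0.18 (adjusted p = 0.141) in Col6a2-/-. The genotype differences of both pairs were not called, except that of Cox4i2 over Cox4i1 at 5 weeks without Col6a2-/- female replicate 2 (-0.30, exact permutation adjusted p = 0.0395, against -0.22 and 0.145 with it).

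Sex separated 2 of the 81 members (2.47%), both lower in males, where 3.05% of all tested genes were called and 1.18% were lower. Without Col6a2-/- 5-week female replicate 2 the count was 4. Cox6a2 ran through 347, 521 and 567 TPM in the 16 females and 336, 421 and 487 TPM in the 16 males. It was lower in males by -0.24 (SE 0.05, adjusted p = 0.00191 in limma) in 16 of 16. Ndufa7, an accessory subunit of complex I (chromosome 17, 33824591 to 33838316, plus strand), ran through 70.2, 84.5 and 109 TPM in females and 66.1, 68.5 and 74.9 TPM in males, a difference of -0.27 (SE 0.06, adjusted p = 0.00558), also in 16 of 16. Neither was called without mitochondrial genes and Rn7s in the total (-0.18, adjusted p = 0.136, and -0.21, adjusted p = 0.0769). Sex by age was called for no member in limma (3.43% of all genes; 4 unadjusted), and for 1 without Col6a2-/- 5-week female replicate 2 or 25-week male replicate 1.

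The 4 complex II genes, whose enzyme has no mitochondrially encoded subunit, were called in none of the genotype, age and sex comparisons. In WT and Col6a2-/- at 5 weeks the mean level was 138 ± 17.1 and 146 ± 15.6 TPM (SD, n = 8) for the flavoprotein subunit Sdha, 202 ± 26.5 and 216 ± 23.5 TPM for Sdhb, 43.0 ± 4.41 and 43.3 ± 4.90 TPM for Sdhc and 141 ± 12.8 and 152 ± 12.9 TPM for Sdhd. No complex III gene was called in these comparisons either, but Uqcrb was called lower for genotype at 5 weeks with size factors and without the 100 most abundant genes.

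Other mitochondrial lists were read beside the members. Of 47 assembly factors 5 rose and 2 fell with genotype at 5 weeks, where 23.2% of all tested genes rose and 2.14% fell. Among the 5 were Coa5 (0.31), Sco1 (0.23), Taco1 (0.20) and Sdhaf2 (0.19). Ndufaf5 (-0.27) and Coa6 (-0.26) fell. None was called at 25 weeks, where 4.7% of all tested genes were. With age 1 rose and 6 fell in WT, with Cox14 at -0.37, and 3 rose and 5 fell in Col6a2-/-, beside 15.3% and 28.8% of all tested genes that fell. None of 17 genes of the tricarboxylic acid cycle and pyruvate dehydrogenase was called for genotype, and none of 16 regulators of mitochondrial biogenesis. Of all tested genes 25.4% were called at 5 weeks and 4.7% at 25 weeks. With age 1 of the 17 genes of the cycle and pyruvate dehydrogenase rose and 5 fell in WT, and 1 rose and 4 fell in Col6a2-/-. The cycle enzyme Idh2 rose by 0.75 in WT and 0.91 in Col6a2-/-, and Pdhb, a subunit of pyruvate dehydrogenase, fell by 0.26 and 0.33. Among the regulators Esrrb (0.61), Esrrg (0.57) and Tfb2m (0.23) rose with age in WT, and in Col6a2-/- 3 rose and 1 fell. With age 4.47% of all tested genes rose in WT and 5.41% in Col6a2-/-. Of 19 membrane and import genes 1 rose and 2 fell with genotype at 5 weeks (Vdac1 and Vdac3 fell), 1 rose at 25 weeks, 2 fell with age in WT, and 1 rose and 5 fell with age in Col6a2-/-. The gene that rose at both ages was Slc25a5, an ADP/ATP carrier of many tissues, by 0.61 at 5 weeks and 0.41 at 25 weeks. With age it fell by 0.58 in WT and 0.78 in Col6a2-/-. Cycs for cytochrome c, Hccs for its heme lyase and Cyc1 were not called in these comparisons. Cyc1 encodes cytochrome c1, a complex III subunit that the name rule misses, so no complex III value here includes it.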

How the data were processed

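RNA from cryosections of quadriceps of 32 mice was sequenced, 4 libraries in each of 8 groups. RNA of integrity number 8 or more entered the TruSeq libraries, per the labels' protocols. The submitters' processing notes name FastQC, MultiQC, Trimmomatic, HISAT2, SAMtools and StringTie, and GRCm38. Versions and roles are not given in the sources used here. The deposited tables give coverage, FPKM and TPM per gene, per the file headers. The authors' TPM was used after summing repeated gene identifiers, and FPKM served as an alternative. The deposited coverage was used only with FPKM to infer depth (6.78 to 13.69 Gb of aligned bases). No read counts were in these tables, so no count test was run and counting error is not known.

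Genes of at least 1 TPM in 4 libraries were fitted on log2(TPM + 1), with 1 mean per group over all libraries, by limma 3.58.1 (R 4.3.3) with an intensity trend and Benjamini-Hochberg adjustment. Fold changes of low genes are understated by the pseudocount of 1. Genotype and age were compared as means over sexes, and sex over all groups. Isoform ratios were compared by two-sided exact permutation within sex (4900 arrangements), and complex sums are values without a test. Promoters were RefSeq, GRCm38.p6. Scripts were tested on simulated data. Figures used Python 3.11.15 and matplotlib 3.10.9. Named members are up to 6 called per direction and comparison with the smallest adjusted p, the most abundant and the most changed of each complex, both genes of each isoform pair, the complex II genes and members failing the filter, besides up to 4 genes per supporting list. A few further members near a threshold were named after their values were seen. The members and lists were chosen with earlier results of these data known. Alternatives were 2 pseudocounts, 2 filters, 4 scalings, FPKM, library weights, a length and GC correction, the compared groups alone, the replicate number as a block, and each library left out.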

Additional observations from a re-analysis of the deposited data

Results flagged for a closer look

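Among 232 checks of 4-library groups, 18 (7.76%) had 1 library far from the other 3, where chance gives about 1 in 20. No explanation of these was tested.

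WT 25-week male replicate 4 was far below its group in Atp5g3 (147 TPM, others 234 to 249), Cox5a (217 TPM, others 282 to 284) and Ndufa1 (107 TPM, others 125 to 129). WT 25-week female replicate 4 had a low complex V sum (3633 TPM, others 4193 to 4252), low Cox8a (31.0 TPM, others 38.8 to 39.8) and a high Cox8b to Cox8a log2 ratio (3.75, others 3.45 to 3.49). WT 5-week male replicate 1 had high Cox8a (52.1 TPM, others 40.0 to 41.2) and a low Cox8b to Cox8a log2 ratio (2.91, others 3.16). Cox8a was low in WT 25-week male replicate 2 (28.4 TPM, others 31.8 to 32.1), and Ndufa4l2 was high in WT 25-week female replicate 1 (4.17 TPM, others 2.81 to 3.01).

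In Col6a2-/-, 5-week male replicate 1 had a low complex IV sum (3560 TPM, others 3764 to 3792) and a low Ndufa4l2 to Ndufa4 log2 ratio (-6.47, others -5.68 to -5.56). The 5-week female replicate 4 had a high Cox8b to Cox8a log2 ratio (3.50, others 2.50 to 2.66), and replicate 2 of that group a high Cox4i2 to Cox4i1 log2 ratio (-6.51, others -7.21 to -7.12). That last ratio was low in 25-week female replicate 1 (-7.65, others -7.29 to -7.28). The 25-week female replicate 4 was low in Atp5g3 (193 TPM, others 250.1 to 258) and in Sdhd (120.2 TPM, others 143 to 145). Ndufa7 was high in 25-week male replicate 4 (71.3 TPM, others 66.9 to 67.4).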

How the results depend on the processing

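Without read counts, small differences are limited by the spread between 4 mice per group. Members called for genotype at 5 weeks numbered 4 as reported, and 12 with size factors, 11 without the 100 most abundant genes, 10 with quantile normalization, 2 without mitochondrial genes and Rn7s, 7 with library weights or with the length and GC correction, and 1 with only the compared groups. Library weights called 29.3% of all tested genes higher and 3.16% lower, and the length and GC correction 23.5% and 2.14%. At 25 weeks library weights gave 2 against 0, where 14.5% of all tested genes rose and 0.874% fell. With age in WT (9), size factors or leaving out the 100 genes gave 3 and weights 16. For that comparison weights called 8.40% of all tested genes higher and 24.1% lower. With age in Col6a2-/- (8) the counts were 4 without mitochondrial genes and Rn7s, 13 with size factors, 15 without the 100 genes and 5 with only the compared groups. With those groups alone 4.17% of all tested genes rose and 19.7% fell. For sex (2) the counts were 0 without mitochondrial genes and Rn7s and 5 with FPKM, and for sex by age 1 with weights. In the same order 3.60%, 1.70% and 0.585% of all tested genes were called higher, and 0.679%, 2.15% and 29.1% lower. In 5-week females (4) the counts were 2 without a filter, 0 without mitochondrial genes and Rn7s, 1 with quantile normalization and 0 with only the compared groups. In the same order 4.11%, 6.05%, 6.51% and 0.903% of all tested genes rose, and 0.191%, 0.663%, 5.99% and 0.0438% fell. In 5-week males (0) the counts were 1 without a filter, without mitochondrial genes and Rn7s or with size factors, and 2 without the 100 genes, with quantile normalization or with weights. In the same order 2.35%, 9.42%, 4.77%, 4.69%, 4.73% and 8.40% of all tested genes rose. The shares that fell were 0.264%, 0.281%, 3.67%, 2.96%, 4.25% and 0.772%. In 25-week males (0) weights gave 2 and the compared groups alone 1. There 18.4% and 5.15% of all tested genes rose, and 0.593% and 0.172% fell. The causes were not tested. As shares of the TPM outside mitochondrial genes and Rn7s, the age differences of the sums in WT were 0.076 (complex I), 0.13 (II), 0.066 (III), 0.095 (IV), 0.042 (V) and 0.072 (all members), against negative values as reported. The sum over all members also changed sign by genotype at 25 weeks (0.063 to -0.0099) and by age in Col6a2-/- (-0.031 to 0.041), within the spread between mice.

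With a pseudocount in the ratios, the Col6a2-/- age difference was -0.18 (adjusted p = 0.141) for Cox4i2 over Cox4i1 and 0.18 (adjusted p = 0.0506) for Cox7a1 over Cox7a2. The genotype difference of Ndufa4l2 over Ndufa4 at 25 weeks turned from 0.01 to -0.032.

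Leaving out single libraries gave 3 to 6 members for genotype at 5 weeks, 4 to 11 for age in WT, 7 to 11 for age in Col6a2-/-, 2 to 4 for sex, 0 to 1 for sex by age, 0 to 4 in 5-week females and 0 to 1 in 5-week males. The genotype differences of the ratios ranged at 5 weeks from -0.81 to -0.51 (Cox6a2 over Cox6a1), -0.54 to -0.37 (Cox8b over Cox8a) and -0.30 to -0.17 (Cox4i2 over Cox4i1), and at 25 weeks from -0.48 to -0.33 (Cox6a2 over Cox6a1) and -0.080 to 0.10 (Ndufa4l2 over Ndufa4). Age differences ranged in WT from -0.48 to -0.28 (Cox4i2) and 0.12 to 0.22 (Cox7a1), and in Col6a2-/- from -0.34 to -0.21 (Cox4i2), 0.14 to 0.22 (Cox7a1), 0.39 to 0.55 (Cox8b) and -0.54 to -0.34 (Ndufa4l2).

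The labels state no pairing of mice by replicate number. Over 112 pairs with the same number the median correlation of deviations was 0.032, from -0.34 to 0.35, with 35 over 0.1. Over pairs with other numbers the median was -0.013, and 10 of 32 libraries correlated best with their own number. These values cannot show whether libraries of the same number were handled together. With the replicate block 5 members were called for genotype at 5 weeks. Under the block the ratio tests gave -0.40 (adjusted p = 0.0625) for Cox6a2 over Cox6a1 at 25 weeks, -0.42 and 0.38 (adjusted p = 0.0521 for both) for Cox8b over Cox8a by genotype at 5 weeks and age in WT, and 0.18 (adjusted p = 0.0994) for Cox7a1 over Cox7a2 by age in Col6a2-/-.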

Other observations

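Ndufa12 and Uqcrh varied widely within groups, with an SD on the log2 scale of 0.640 and 0.383. The median over the tested members was 0.162. Ndufa12, an accessory subunit of complex I (chromosome 10, 94198955 to 94221443, plus strand), lay in bands whose limits were chosen after its values were seen: 16 libraries at 33.2 to 50.1 TPM, 8 at 64.0 to 78.1 TPM and 8 at 126 to 163 TPM. Its change with age in WT was 0.63 (limma adjusted p = 0.139), the largest of any complex I member, and was not called. Uqcrh, the hinge subunit of complex III, had 21 libraries at 167 to 227 TPM, 1 at 266 TPM and 10 at 308 to 392 TPM.

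Some members have near-identical copies elsewhere in the genome. At 90% identity over 50% of the transcript, 24 members had 54 such copies. The copies' TPM reached 55.4% of the member's for Atp5g2, 52.0% for Atp5l, 13.8% for Ndufa12, 13.2% for Ndufab1, 13.1% for Ndufs5 and 11.9% for Ndufs3. No copy was found for Cox6a1, Cox6a2, Cox8a, Cox8b, Ndufb4 or Cox7a2l. The levels of Atp5l, including its rise with age in Col6a2-/-, are uncertain, since how reads shared with copies were counted is not given in the sources used here.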
